A study of Homo sapiens with 6 samples.

Results

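The genes examined here were 10 that encode the centrosome linker, substrates of the kinase NEK2 and the enzymes that act on NEK2 itself: CEP250, CROCC, CEP68, LRRC45, CNTLN, NINL, STK3, PPP1CA, PPP1CC and NDC80. They were picked by symbol as a pathway, with earlier results of these data known, and each had its own row among the 74852 rows of the gene table, so that 10 of 10 were measured. All 10 passed the filter on low values (a mean over the libraries of 10 or more normalized counts) and entered the test. The cells were MDA-MB-231, a human triple-negative breast cancer line with a mesenchymal phenotype. All cultures went through a pair of transfections with Lipofectamine RNAiMAX, with non-targeting control siRNAs (si-CTRL, n = 3) or with siRNAs against NEK2 (si-NEK2, n = 3), and polyA RNA was sequenced. The sample records give the harvest as 24 h after the second transfection, and the study's methods give a different time. Each group received a single pool of siRNAs, so that the depletion of NEK2 and any other effect of that pool cannot be told apart.

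The recovered reads ranged from 52625492 to 87454509 per library, and the 10 genes with most reads took 7.07% to 8.02% of them. Replicates of a group differed beyond sampling noise in every pair (chi-square per degree of freedom between 9.16 and 79.6). si-CTRL replicate 1 stood apart from the other libraries on the second principal component, at 38.9 against -26.1 to 16.9 for the others (16.2% of the variance). Only the si-CTRL records refer to other sample records, and it is not stated that the groups were prepared together, so that preparation and group cannot be told apart. The methods speak of triplicates without saying whether these were separate cultures, so that the p-values measure the spread between these libraries, which may be technical. Of the markers of the line, VIM was present at 134282 to 173162 normalized counts in every library. Of those listed as low or absent, PGR, CDH1, ESR1 and the leukocyte gene PTPRC stayed at or below 1.64, 5.42, 15.2 and 25.4. GATA3, also listed as low, reached 287 to 542. Of 4 marker genes of the line, 2 changed (limma, adjusted p of at most 0.05), as did 43.1% of all tested genes. CD44 and ZEB1 fell by 0.76 and 0.82 on the log2 scale in si-NEK2 (limma, adjusted p = 0.00332 and 0.00034), while VIM (-0.18, adjusted p = 0.101) and AXL (-0.20, adjusted p = 0.0818) did not pass. These are bulk measurements, in which fewer cells of a kind and less RNA per cell cannot be told apart.

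The silenced gene was read before the members. NEK2 (GSHG0002936, chromosome 1 from 211831601 to 211848972, hg19) stood at 3702, 3323 and 3290.2 normalized counts in the si-CTRL libraries and at 284, 362 and 388 in the si-NEK2 libraries. In the si-NEK2 libraries 10.0% of the si-CTRL mean was left, a log2 fold change of -3.32 (95% interval -3.60 to -3.05), and between -3.45 and -3.19 under 17 other ways of processing.

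The members belong to a pathway with known roles. In interphase a flexible linker holds the centrosomes of a cell together. CEP250 (C-Nap1) docks at the proximal ends of the centrioles, CROCC (rootletin) forms fibres that attach to it, CEP68 and LRRC45 associate with these fibres, and CNTLN (centlein) bridges CEP250 and CEP68. At the onset of mitosis NEK2 phosphorylates linker proteins, which then leave the centrosome, so that the centrosomes can part under motor force. The Hippo kinase STK3 (MST2) acts upstream and phosphorylates NEK2, while protein phosphatase 1, whose catalytic subunits are encoded by PPP1CA, PPP1CB and PPP1CC, binds NEK2 and opposes it. NINL, a microtubule anchoring protein, is displaced from the centrosome through NEK2, and NDC80 (HEC1), a kinetochore component that binds microtubules, is a substrate in mitosis. All of this regulation acts on proteins, and the values given here are transcript levels.

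The promoters of PPP1CC, LRRC45 and CNTLN are shown because these genes include the member with the largest increase and the linker genes that were lower in si-NEK2. RefSeq (GRCh38.p14) gave a promoter for 7 of 10 members. The windows are the 250 bases before the annotated start, written 5′ to 3′ on the strand of the gene, at chr12:110742892-110743141 for PPP1CC (minus strand, 74.4% GC), chr17:82023055-82023304 for LRRC45 (plus strand, 67.6% GC) and chr9:17134790-17135039 for CNTLN (plus strand, 70.8% GC). Capitals mark the CCAAT box and the GC box GGGCGG, on either strand.
PPP1CC: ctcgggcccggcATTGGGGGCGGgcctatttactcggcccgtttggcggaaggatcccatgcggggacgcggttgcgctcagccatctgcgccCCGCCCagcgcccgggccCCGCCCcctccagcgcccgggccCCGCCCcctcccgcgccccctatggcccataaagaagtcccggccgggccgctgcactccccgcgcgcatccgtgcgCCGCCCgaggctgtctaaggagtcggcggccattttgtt
LRRC45: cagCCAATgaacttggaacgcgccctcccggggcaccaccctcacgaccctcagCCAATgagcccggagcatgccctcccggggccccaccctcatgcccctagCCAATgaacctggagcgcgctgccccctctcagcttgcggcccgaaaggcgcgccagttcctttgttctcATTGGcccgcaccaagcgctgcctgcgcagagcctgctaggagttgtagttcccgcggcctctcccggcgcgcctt
CNTLN: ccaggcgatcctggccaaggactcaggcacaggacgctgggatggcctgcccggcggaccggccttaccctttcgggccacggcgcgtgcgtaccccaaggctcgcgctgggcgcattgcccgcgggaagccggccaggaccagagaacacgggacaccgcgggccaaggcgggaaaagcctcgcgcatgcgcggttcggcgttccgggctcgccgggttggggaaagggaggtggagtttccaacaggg
The promoter of PPP1CC held 5 copies of GGGCGG, the nearest at position -39 from the start, and 1 CCAAT box at -238, read on the other strand as ATTGG and followed directly by a GC box with which it shares no base. The window of NINL, a member that did not pass the test of change, also held 5 copies of GGGCGG. At least 5 copies of GGGCGG were found in 4.15% of the 35116 promoters of the same length. LRRC45 held 4 CCAAT boxes, the nearest at -76, and no GC box. At least 4 CCAAT boxes were found in 0.874% of all promoters. The window of CNTLN held neither.

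Among the 7 promoters, CCAAT occurred in 3 and GGGCGG in 3, against 32.0% and 42.6% of all promoters. The sequences TTTGAA and TTTAAA, forms of an element known from the promoters of cell cycle genes, were also searched on both strands, TTTAAA being its own reverse complement. They occurred in 0 of 7 members, and in 13.3% and 11.3% of all promoters. A match is a string of letters in this window and was not related to the fold changes.

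PPP1CC and CEP250 rose in si-NEK2 and CNTLN fell, each by a modest amount, while CROCC, CEP68, NINL and STK3 gave differences within their error. By the test over all 18717 genes with a mean of at least 10 (limma on log2(value + 1), Benjamini-Hochberg adjusted p of at most 0.05), 5 of 10 members changed: CEP250, PPP1CC and NDC80 rose, and LRRC45 and CNTLN fell. The background was high, with 43.1% of all tested genes changed, 21.8% higher and 21.3% lower, so that 3 members higher and 2 lower was close to the background shares. With the libraries scaled to equal totals, 32.9% of the changed genes were higher in place of 50.6%, and the median of all genes moved from 0.01 to -0.11. The study's methods used an unadjusted p up to 0.05 with a fold change of 1.5 or more. At these cut-offs only PPP1CC of the 10 members passed in the limma fit. So did 8.23% of all tested genes in the same direction and 22.5% in either. Only the cut-offs are the study's, so that these shares do not stand for its own count of regulated genes. The 3 si-NEK2 values lay wholly on 1 side of the 3 si-CTRL values for 6 members, against 55% of all genes. The median log2 fold change of the members was -0.05 (range -0.34 to 0.72), beside 0.01 for all genes. Leaving out si-CTRL replicate 1 gave 6 changed members, with PPP1CA added, and leaving out si-CTRL replicate 3, si-NEK2 replicate 2 or si-NEK2 replicate 3 left 2, PPP1CC and CNTLN.

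**Figure D1:**
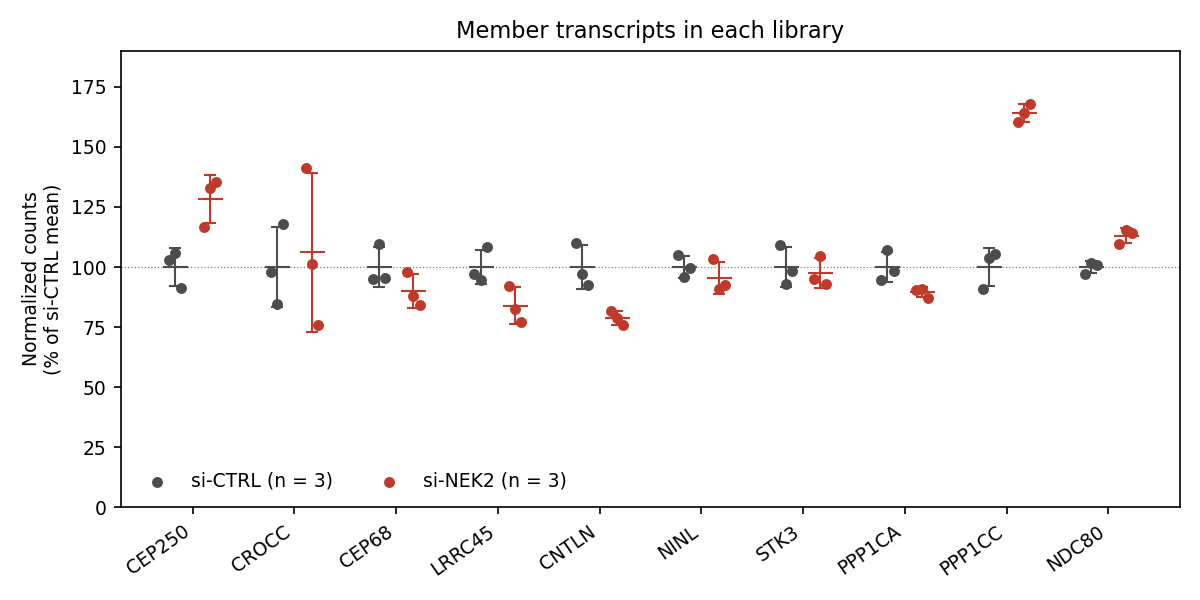
Normalized counts of the 10 members in each of the 6 libraries, as a percentage of the si-CTRL mean of the gene (vertical axis), with a dot per library and a bar with whiskers for the mean ± SD of each group (n = 3). PPP1CC lies at 164% in si-NEK2 with all dots clear of si-CTRL, whereas the dots of CROCC, CEP68, NINL and STK3 overlap between groups.

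**Figure D2:**
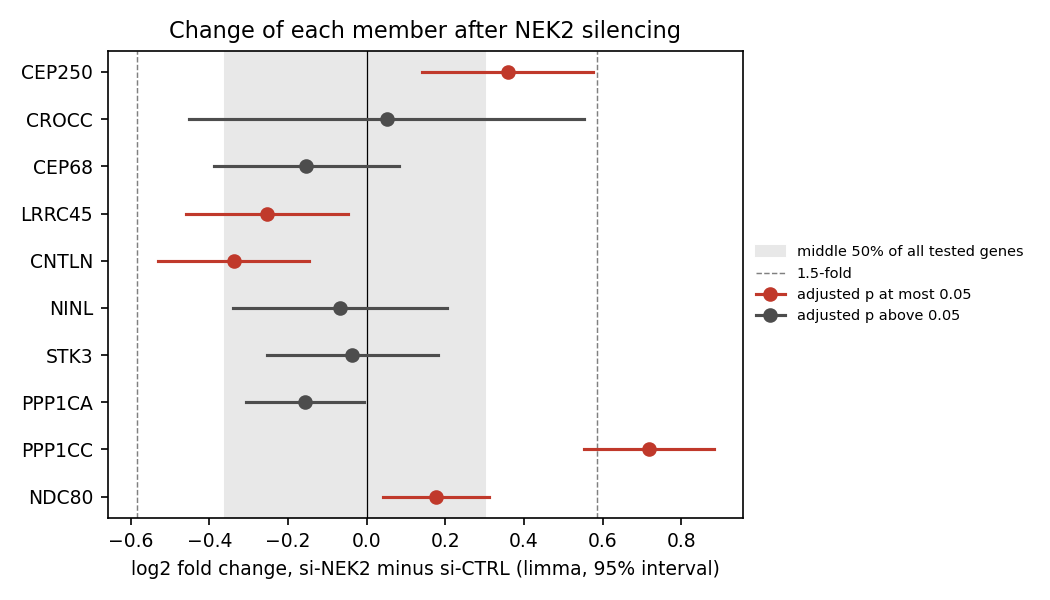
Log2 fold change, si-NEK2 over si-CTRL, of each member (points) with its 95% interval from limma (whiskers), in red where the adjusted p was at most 0.05. The grey band holds the middle 50% of all tested genes (-0.36 to 0.30) and the dashed lines mark a fold change of 1.5, which PPP1CC alone passes, at 0.72.

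The genes of CEP250 and CNTLN, the proteins that dock and bridge the linker, moved in opposite directions. CEP250 (GSHG0018708, chromosome 20 from 34042996 to 34099804, hg19) had 907, 934 and 804 normalized counts in si-CTRL and 1029, 1171 and 1194 in si-NEK2. All si-NEK2 libraries lay above all si-CTRL libraries. The mean rose from 882 ± 68.4 to 1132 ± 89.1 (SD, n = 3 each), a log2 fold change of 0.36 (standard error 0.10, 95% interval 0.14 to 0.58, limma adjusted p = 0.015). The call was lost with equal totals (0.23, adjusted p = 0.087) and without si-CTRL replicate 3 (0.29, adjusted p = 0.0536), si-NEK2 replicate 2 (0.33, adjusted p = 0.0692) or si-NEK2 replicate 3 (0.32, adjusted p = 0.0593).

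CNTLN (GSHG0030029, chromosome 9 from 17134989 to 17503920) had 2143, 1893 and 1804 normalized counts in si-CTRL and 1592, 1538 and 1479.8 in si-NEK2. Every si-NEK2 library was below every si-CTRL library, and the si-NEK2 values lay closer together. The mean fell from 1947 ± 176 to 1537 ± 55.9 (SD, n = 3 each), to 78.9% of si-CTRL, with a log2 fold change of -0.34 (standard error 0.08, 95% interval -0.53 to -0.15, limma adjusted p = 0.0113). CNTLN kept its call under all 17 alternatives, at -0.47 to -0.27.

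LRRC45 (GSHG0012912, chromosome 17 from 79981178 to 79989026), which binds the linker fibres, had 2066, 2011 and 2302 normalized counts in si-CTRL and 1958, 1756 and 1639 in si-NEK2. The groups did not overlap, although the highest si-NEK2 library was near the lowest si-CTRL library. The mean fell from 2126 ± 154 to 1784 ± 162 (SD, n = 3 each), a log2 fold change of -0.25 (95% interval -0.46 to -0.05, limma adjusted p = 0.0497). This call stood at the threshold and was lost under 9 of 17 alternatives, among them edgeR with TMM (adjusted p = 0.0528) and the fit without si-NEK2 replicate 3 (-0.19, adjusted p = 0.17), while the direction held in all of them.

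CROCC and CEP68, the fibre components, did not pass the test. CROCC (GSHG0000184, chromosome 1 from 17222232 to 17299474) had 270.0, 233 and 325 normalized counts in si-CTRL and 390.3, 279 and 209 in si-NEK2. The highest and the lowest of the 6 values were both si-NEK2 libraries, replicates 1 and 3. The log2 fold change was 0.05 with a 95% interval of -0.45 to 0.55 (limma adjusted p = 0.872), and its sign turned with equal totals (-0.08), with upper quartile scaling (-0.01) and without si-CTRL replicate 2 (-0.06) or si-NEK2 replicate 1 (-0.18).

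CROCC has near-identical pseudogene copies, so that its reads may be split among them. CROCCP2 (GSHG0001791), picked for this reason after the values were seen, had 399, 482 and 425 normalized counts in si-CTRL and 544, 434 and 317 in si-NEK2. As for CROCC, si-NEK2 replicate 1 was the highest and si-NEK2 replicate 3 the lowest of the 6 values. CROCCP3 (GSHG0001785), picked in the same way, had 160.0, 183 and 175 normalized counts in si-CTRL and 193, 212 and 194 in si-NEK2 and did not share this pattern, with all si-NEK2 values above si-CTRL.

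CEP68 (GSHG0016508, chromosome 2 from 65283495 to 65314141) had 539.9, 621 and 541 normalized counts in si-CTRL and 555, 498 and 477 in si-NEK2. Replicate 1 of si-NEK2 lay within the si-CTRL range. The log2 fold change was -0.15 (95% interval -0.39 to 0.08, limma adjusted p = 0.266). The CEP68 row overlaps that of RAB1A, a gene of vesicle transport with a mean of 20791 normalized counts that rose by 0.49 on the log2 scale (limma adjusted p = 0.0092). Whether the counting used strand is not stated, so that the value of CEP68 is uncertain.

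Of 6 other genes of the linker and the proximal centriole, 5 had a row and 1 passed the test, as did 43.1% of all tested genes. CCDC102B, a further linker protein, had 31.2, 43.6 and 50.4 normalized counts in si-CTRL and 71.2, 80.4 and 77.9 in si-NEK2. It rose by 0.88 on the log2 scale (standard error 0.22, limma adjusted p = 0.0105), with all si-NEK2 libraries above all si-CTRL libraries. CDK5RAP2, CEP135, PCNT and NIN did not pass, and the median log2 fold change of the 5 genes was -0.08.

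The level of CEP250 relative to CROCC was compared within each library, a measure that does not depend on how libraries are scaled. The log2 ratio was 1.68 ± 0.35 in si-CTRL and 1.99 ± 0.56 in si-NEK2 (SD, n = 3 each), and the difference of 0.31 was not significant (exact permutation test, two-sided, p = 0.4, adjusted over 4 ratios p = 0.533). The difference was 0.05 without si-NEK2 replicate 3, 0.60 without si-NEK2 replicate 1, 0.12 without si-CTRL replicate 3 and 0.47 when si-CTRL replicate 2 was left out, so that its size rested on single libraries. With 3 libraries against 3 the smallest p of this test is 0.1, so that no ratio could pass.

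NINL and NDC80 are the members that belong neither to the linker nor to the enzymes that act on NEK2. NINL (GSHG0019085, chromosome 20 from 25433334 to 25566167) had 199, 181 and 188 normalized counts in si-CTRL and 196, 172 and 175 in si-NEK2. The groups overlapped, and the log2 fold change of -0.07 (95% interval -0.34 to 0.20, limma adjusted p = 0.68) was within the spread. NINL was the member with the fewest normalized counts.

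NDC80 (GSHG0013872, chromosome 18 from 2571510 to 2616633) had 6570.4, 6869 and 6822 normalized counts in si-CTRL and 7389.6, 7791 and 7715 in si-NEK2. All si-NEK2 libraries were above all si-CTRL libraries, with little spread in either group. The mean rose from 6754 ± 161 to 7632 ± 213 (SD, n = 3 each), to 113%, with a log2 fold change of 0.18 (standard error 0.06, 95% interval 0.04 to 0.31, limma adjusted p = 0.0404). The call was lost under 11 of 17 alternatives, among them equal totals (0.05, adjusted p = 0.557), upper quartile scaling (0.11, adjusted p = 0.168) and every fit that left out a library other than si-CTRL replicate 1.

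The partners of NDC80 at the kinetochore leaned the same way. Of 12 genes, namely those of the NDC80 complex, the MIS12 complex and the spindle checkpoint with KNL1 and ZWINT, 8 rose, 0 fell and 4 did not pass. PMF1, which is among the 8, shares its row with BGLAP, so that its value is that of the joint row. Among all tested genes 21.8% rose and 21.3% fell. The median log2 fold change of the 12 genes was 0.28, beside 0.01 for all genes. With equal totals 4 rose and 0 fell, with a median of 0.15 beside -0.11 for all genes, and the fits without 1 library gave 5 to 9 higher and 0 lower. The 4 genes that did not pass were SPC24, NSL1, ZWINT and MAD1L1. Some further kinetochore and checkpoint genes were placed among the G2/M markers below. Of those, BUB1B (0.09, limma adjusted p = 0.358) and CENPE (-0.03, limma adjusted p = 0.779) did not pass. CDC20 and CENPF rose by 0.24 and 0.31 (limma adjusted p = 0.0221 and 0.0183), calls lost under 8 and 4 of 17 alternatives.

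MAD2L1, which encodes the checkpoint protein MAD2, had 4211, 6215 and 6329 normalized counts in si-CTRL and 9399, 9347 and 8577 in si-NEK2, a log2 fold change of 0.73 (limma adjusted p = 0.0037). si-CTRL replicate 1 was well below the other control libraries, and all si-NEK2 libraries were higher than every control. BUB1, a checkpoint kinase, had 9744, 8941 and 8952 normalized counts in si-CTRL and 14211, 14806 and 14704 in si-NEK2, a log2 fold change of 0.66 (limma adjusted p = 8.5e-05). DSN1 and MIS12, subunits of the MIS12 complex that anchors NDC80 to the kinetochore, rose by 0.55 and 0.37 on the log2 scale (limma adjusted p = 0.000279 and 0.00328).

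NUF2, the direct partner of NDC80 in its complex, moved by the same amount as NDC80. NUF2 had 4176, 3998 and 3912 normalized counts in si-CTRL and 4526, 4794 and 4449 in si-NEK2, a log2 fold change of 0.19 (limma adjusted p = 0.0437) that lost its call under 12 of 17 alternatives. The log2 ratio of NDC80 to NUF2 was 0.75 ± 0.08 in si-CTRL and 0.73 ± 0.05 in si-NEK2 (SD, n = 3 each), a difference of -0.01 (exact permutation test, two-sided, p = 0.9, adjusted p = 0.9). The difference was much smaller than the spread between libraries.

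Genes that peak in G2 and mitosis are expressed at the same stage as the kinetochore genes, and their values stand beside this result. Of 14 G2/M markers 8 rose, 1 fell and 5 did not pass, where 21.8% of all tested genes rose and 21.3% fell. Their median log2 fold change was 0.25. With equal totals 3 rose and 2 fell. CCNB1, CCNA2 and CCNB2, the mitotic cyclins, rose by 0.58, 0.56 and 0.41 on the log2 scale (limma adjusted p = 0.00135, 0.00029 and 0.000682), and TPX2, a spindle assembly factor, fell by 0.40 (limma adjusted p = 0.00667). The summed level of the 14 markers was 205722 to 222389 normalized counts in si-CTRL and 215165 to 226297 in si-NEK2, with overlapping ranges, and no marker was at 0 in any library. The part of these markers in the values of NDC80 and its partners was not tested.

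The kinase upstream of NEK2 was close to its control level. STK3 (GSHG0029739, chromosome 8 from 99466859 to 99954799) had 829, 705 and 747 normalized counts in si-CTRL and 722, 794 and 705 in si-NEK2. The groups overlapped over nearly their whole range. The log2 fold change was -0.04 (95% interval -0.25 to 0.18, limma adjusted p = 0.784), and it turned to 0.03 without si-CTRL replicate 1.

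STK4 (MST1), the closest relative of STK3, and SAV1, the scaffold through which these kinases meet NEK2, both had higher means in si-NEK2. SAV1 had 4639, 4428 and 4574 normalized counts in si-CTRL and 5488, 5557 and 5808 in si-NEK2, and rose by 0.30 on the log2 scale (standard error 0.06, limma adjusted p = 0.00398) under all alternatives. STK4 had 3049.6, 2694 and 2738 normalized counts in si-CTRL and 3069.6, 3196 and 3397 in si-NEK2, a log2 fold change of 0.19 that did not pass (limma adjusted p = 0.0766). The log2 ratio of STK3 to STK4 was -1.89 ± 0.03 in si-CTRL and -2.12 ± 0.13 in si-NEK2 (SD, n = 3 each), a difference of -0.23 without overlap (exact permutation test, two-sided, p = 0.1, adjusted p = 0.2), and 0.1 is the smallest p it can give.

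Of all 8 listed regulators of NEK2, 3 rose, 3 fell and 2 did not pass, where 21.8% of all tested genes rose and 21.3% fell. CEP85, a centrosomal inhibitor of NEK2, rose by 0.37 on the log2 scale (limma adjusted p = 0.00521) and PCM1, a centriolar satellite protein, by 0.27 (limma adjusted p = 0.0144), the latter call being lost under 3 of 17 alternatives. PLK1, the mitotic kinase that acts above STK3, fell by 0.23 (limma adjusted p = 0.0366), a call lost under 7 of 17 alternatives. The median of the list was -0.02, and its largest changes were the decreases of PPP1R2 and PPP1CB.

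PPP1CC, the gamma subunit of protein phosphatase 1, gave the largest change of any member. PPP1CC (GSHG0007780, chromosome 12 from 111157613 to 111180783) had 11052, 12651 and 12849 normalized counts in si-CTRL and 19518, 20011 and 20464 in si-NEK2. The lowest si-NEK2 library lay far above the highest si-CTRL library. The mean rose from 12184 ± 985 to 19998 ± 473 (SD, n = 3 each), 1.64-fold, with a log2 fold change of 0.72 (standard error 0.07, 95% interval 0.55 to 0.88, limma adjusted p = 0.000124). The call held under all 17 alternatives, at 0.59 to 0.76, and no other row overlaps the gene.

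PPP1CA, the alpha subunit, was lower in every si-NEK2 library without passing the test. PPP1CA (GSHG0005943, chromosome 11 from 67165652 to 67194582) had 15994, 18064 and 16604 normalized counts in si-CTRL and 15294, 15341 and 14746 in si-NEK2. The groups did not overlap, and the si-NEK2 mean was 89.6% of si-CTRL. The log2 fold change was -0.16 (95% interval -0.31 to -0.01, limma adjusted p = 0.0843), and it passed with equal totals (-0.29, adjusted p = 0.00899), with upper quartile scaling (-0.22, adjusted p = 0.0275) and without si-CTRL replicate 1 (-0.20, adjusted p = 0.0095). The PPP1CA row overlaps 5 others, the largest being RAD9A with a mean of 948 normalized counts, and all 5 together came to 6.12% of the PPP1CA mean, so that without stated strand handling a small part of its reads is uncertain.

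PPP1CB, the beta subunit and no member, shares its row with SPDYA, so that its value is that of the joint row. The row had 10029.9, 11266 and 10424 normalized counts in si-CTRL and 4944, 5402 and 5378 in si-NEK2, 49.6% of the control mean. It fell by 1.01 on the log2 scale (standard error 0.07, limma adjusted p = 2.2e-05) under all alternatives. PPP1R2, which encodes inhibitor 2 of the phosphatase, had 8261, 8112 and 8201 normalized counts in si-CTRL and 3806, 3682 and 3284 in si-NEK2. It fell by 1.19 (standard error 0.07, limma adjusted p = 1.04e-05), with the control libraries within a narrow range.

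The balance of the subunits was compared within each library. The log2 ratio of PPP1CA to PPP1CC was 0.53, 0.51 and 0.37 in si-CTRL and -0.35, -0.38 and -0.47 in si-NEK2, without overlap between the groups. The counts in this ratio are not scaled to transcript length, so that its sign does not tell which subunit was more abundant. The mean ratio went from 1.39 to 0.756 on the linear scale, a log2 difference of -0.87 (exact permutation test, two-sided, p = 0.1, the smallest it can give, adjusted p = 0.2).

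The subunits were then put on a common scale, normalized counts per kb of the longest annotated coding transcript, a sum chosen after their values were seen. PPP1CA had 11441 ± 721 per kb in si-CTRL and 10249 ± 224 in si-NEK2 (SD, n = 3 each). PPP1CC went from 4761 ± 385 to 7815 ± 185 per kb, and the row of PPP1CB from 2161 ± 129 to 1071 ± 52.7. The share of PPP1CC in the sum was 25.1% to 27.3% in si-CTRL and 40.1% to 41.9% in si-NEK2, and that of the PPP1CB row was 11.8% ± 0.17 and 5.6% ± 0.24 (SD, n = 3 each). The sum itself was 18364 ± 1140 and 19135 ± 164 per kb, with the si-NEK2 libraries inside the si-CTRL range. In both groups PPP1CA remained the most abundant subunit, and the si-NEK2 mean of the sum was within the spread of si-CTRL.

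**Figure D3:**
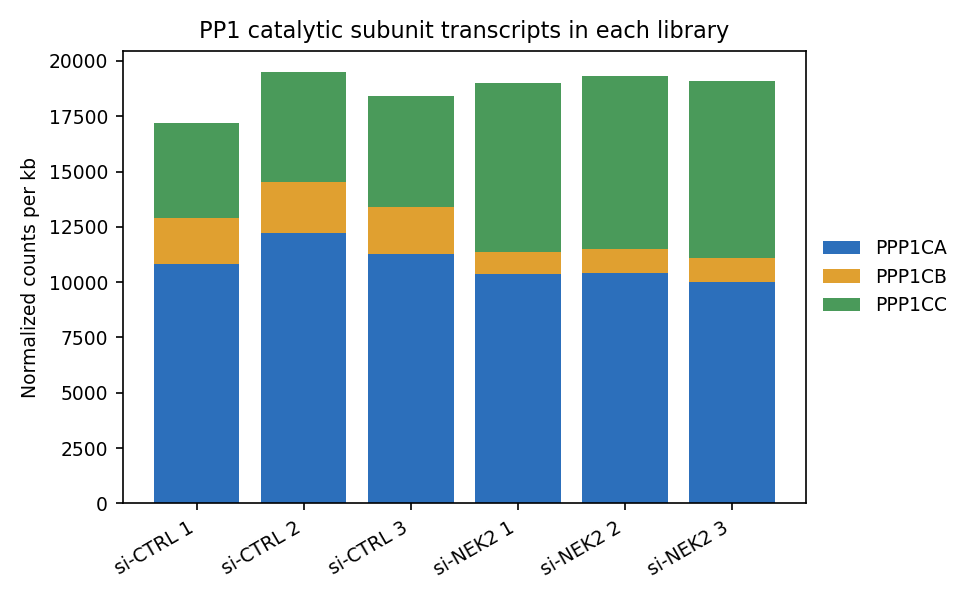
Normalized counts per kb of transcript of PPP1CA, PPP1CB (a row shared with SPDYA) and PPP1CC, stacked for each of the 6 libraries from a baseline of 0. The total height stays between 17205 and 19485, while the PPP1CC part is larger and the PPP1CB part smaller in the 3 si-NEK2 libraries.

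Among 12100 genes with 1 symbol and a mean of at least 50, those with a pattern most like PPP1CC over the 6 libraries were SPDL1, TOM1L2 and PAQR7, at Euclidean distances of 0.0538, 0.071 and 0.0711 on the centred log2 scale. SPDL1, which encodes the kinetochore adaptor spindly, had 11423 to 13298 normalized counts in si-CTRL and 19773 to 20489 in si-NEK2, with a log2 fold change of 0.69. The changes of TOM1L2 and PAQR7 were 0.72 and 0.76. This distance includes the difference between the groups itself.

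The members covered a wide range of levels per kb, and their order was the same in both groups. In si-CTRL the order was PPP1CA, PPP1CC, NDC80 at 3109 ± 73.9 per kb, LRRC45 at 787 ± 57.2, CNTLN at 349 ± 31.5, STK3 at 245 ± 20.2, CEP68 at 97.0 ± 7.94, CEP250 at 56.2 ± 4.36, CROCC at 41.5 ± 6.94 and NINL at 38.1 ± 1.78 (SD, n = 3 each). Only the neighbours CROCC and NINL had overlapping ranges in si-CTRL and again in si-NEK2, at 44.0 ± 13.7 and 36.4 ± 2.6 per kb. Within the linker, LRRC45 and CNTLN had higher levels per kb than CEP250 and CROCC, the components at its base and in its fibres. The level of CEP250 rests on its longest coding transcript, of 15703 bases, and reads of CROCC may be split with its pseudogenes. The places of CEP250 and CROCC in the order are therefore uncertain. In si-NEK2 PPP1CC came nearer to PPP1CA, and CEP250 at 72.1 ± 5.67 nearer to CEP68 at 87.2 ± 6.89.

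**Figure D4:**
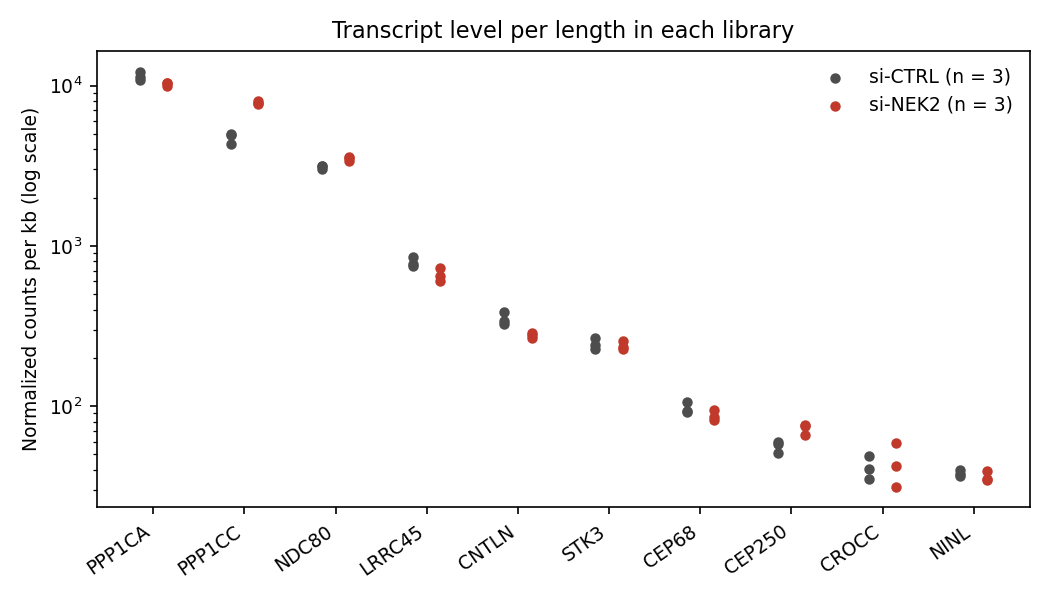
Levels of the 10 members in normalized counts per kb of transcript on a log axis, with a dot per library. The order from PPP1CA to NINL by group mean (not drawn) is the same in si-CTRL and si-NEK2, and CROCC and NINL overlap at the low end.

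Other substrates of NEK2 were mixed. Of 8 genes, 2 rose, 2 fell and 4 did not pass, where 21.8% of all tested genes rose and 21.3% fell. Their median log2 fold change was 0.06. CTNNB1, which encodes beta-catenin, a protein that NEK2 also phosphorylates at the centrosome, had 17510.2, 21046 and 20957 normalized counts in si-CTRL and 30063, 31457 and 31751 in si-NEK2. It rose by 0.65 on the log2 scale (limma adjusted p = 0.000354). TERF1, a telomere protein, rose by 0.53 (limma adjusted p = 0.00111). GAS2L1, which links actin and microtubules at the centrosome, fell by 0.75 with a wide error (standard error 0.20, limma adjusted p = 0.0137), and HMGA2, a chromatin protein, fell by 0.34 (limma adjusted p = 0.0229), a call lost under 5 of 17 alternatives.

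Of 6 motors and kinases that part the centrosomes, 2 rose, 2 fell and 2 did not pass. NEK7, a kinase that acts with NEK9 on the motor KIF11, had 4058, 3771 and 4588 normalized counts in si-CTRL and 1426, 1452 and 1387 in si-NEK2, the largest change of any gene in these 5 lists. It fell by 1.54 on the log2 scale (standard error 0.08, limma adjusted p = 6.72e-06). NEK6 and NEK9 did not pass. DYNC1H1, the heavy chain of dynein, fell by 0.42 (limma adjusted p = 0.00903), while the kinesins KIF15 and KIF11 rose by 0.27 and 0.21 (limma adjusted p = 0.0129 and 0.0318), calls lost under 3 and 10 of 17 alternatives, equal totals among them in both cases. Over the 5 lists together, 16 of 39 tested genes rose and 7 fell, beside 21.8% and 21.3% of all genes, with a median log2 fold change of 0.19, and these lists were chosen with earlier results of these libraries known.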

How the data were processed

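Libraries were grouped by the sample records. The submitters' processing notes name STAR 2.4.0, Picard, SAMtools, FastQC, DESeq2 and hg19, and the methods name FAST DB annotation. The authors deposited a gene signal, the reads of a gene divided by the size factor of the library, called normalized count here. Each value was a whole multiple of 1 read, worth 0.818 to 1.25 normalized counts, in 100% of values (tolerance 0.1 read), which gave back the reads. Strand handling and the counter are not given in the sources used here. Of the columns of values, 0 were left without a sample.

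Genes with a mean of at least 10 were tested with limma 3.58.1 (R 4.3.3) on log2(value + 1), lmFit and eBayes with an intensity trend, without covariates. Fold changes are on this scale and understate those of genes with few reads. Within-library ratios were tested by exact permutation (scipy 1.17.1). Alternatives were edgeR 4.0.16 (quasi-likelihood) and DESeq2 1.42.0 on the recovered reads, other pseudocounts, filters and scalings, eBayes without a trend, a replicate block and each library left out. Fits were also run on simulated data with the same relative spread for every gene. The simulation did not model the spread between these libraries, so that it does not bear on the calls here. Levels per kb use the longest coding transcript of GENCODE 29. Promoters are from RefSeq, matched by symbol.

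Named are all members, NEK2, up to 4 changed genes per list with the largest fold change, genes of counts of 5 or fewer, and the 3 genes nearest to the most changed member. CDC20 and CENPF are named beside BUB1B and CENPE. The members and lists were chosen with earlier results of these data known. Columns of the authors' own comparisons were not used.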

Additional observations from a re-analysis of the deposited data

How the results depend on the processing

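Of 170 values of a member under an alternative (10 members, 17 alternatives), 138 kept direction and side of the threshold, 24 lost and 3 gained their call and 5 turned sign. PPP1CC, CNTLN and NEK2 kept their calls under all 17. The count of changed members was 3 in place of 5 with eBayes without a trend, without a filter on low values and with the replicate number as a block, and 2 to 6 when a library was left out. With a fold change of at least 2, 0 members and 1637 genes were regulated, in place of 1 and 4213. Sign turned for CROCC with equal totals (-0.0765) and upper quartile scaling (-0.0144) and over the fits without a library (-0.18 to 0.27), for STK3 over those fits (-0.0895 to 0.0268), and for the ratio of NDC80 to NUF2 (-0.0575 to 0.0166). The cause was not tested. The replicate numbers share only a number. The deviations of each library from the mean of its own group were correlated across genes between the groups. Same-numbered libraries gave -0.09, 0.05 and -0.15, and the highest value was 0.18, for si-CTRL replicate 1 with si-NEK2 replicate 3. The replicate block gave 6883 changed genes in place of 8063. Leaving out a library gave 5904 to 9340 changed genes, the most without si-CTRL replicate 1.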

Other observations

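Genes of the G1/S transition, which belong to none of the comparisons above, did not move together. Of 11 markers 2 rose, 4 fell and 5 did not pass (limma, Benjamini-Hochberg adjusted p of at most 0.05). Among all tested genes 21.8% rose and 21.3% fell. The median log2 fold change of the 11 markers was -0.01. CCNE1, which encodes cyclin E1, had 446, 356 and 415 normalized counts in si-CTRL and 62.2, 52.4 and 81.1 in si-NEK2, 16.1% of the control mean. It fell by 2.64 on the log2 scale (limma adjusted p = 1.92e-05). CCNE2, which encodes cyclin E2, had 1437, 1355 and 1512 normalized counts in si-CTRL and 2023, 2004 and 1906 in si-NEK2, and rose by 0.46 (limma adjusted p = 0.00127). The helicase subunits MCM5 and MCM3 fell by 0.39 and 0.36 (limma adjusted p = 0.00191 and 0.00142). The summed level of the 11 markers was 153201 to 154919 in si-CTRL and 141820 to 145897 in si-NEK2.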
